A study of Mus musculus with 10 samples.

Results

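The genes described here encode the machinery of mitosis: the kinases and cyclins that start it, the kinetochore and spindle that move the chromosomes, and the proteins that divide the cell. They are a fixed list of 44 genes, chosen by function with earlier results of these data known. Of these, 43 could be measured among 19938 genes on the array, and Ccnb1 was not analysed because its probe set is annotated with several genes. Dorsal root ganglia (DRGs), which hold the cell bodies of sensory neurons and their glia, came from mouse embryos at E13.5, where E stands for embryonic day. In the Lkb1 KO embryos, Cre driven by Wnt1 sequences had deleted floxed Lkb1 (gene symbol Stk11), a kinase gene, in the neural crest lineage, which gives rise to both the neurons and the glia of the ganglion. Cells of other origin in the ganglion, such as those of blood vessels and macrophages, keep the gene. The methods describe mice of mixed genetic background, with WT littermates as controls. The WT embryos are called wild type in the labels, and the sources used here do not say whether they carried Cre or floxed alleles. There were 5 Lkb1 KO and 5 WT samples, and every sample combined the DRGs of 2 embryos and was read on its own one-colour Affymetrix Mouse Gene 1.0 ST array. The study used the arrays to ask which genes are expressed differently in DRGs without Lkb1, and n counts pools throughout.

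Mitotic genes are transcribed late in the cell cycle, and much of their RNA and protein is lost when the cell divides or leaves the cycle. In cells that have stopped dividing they are held silent by the DREAM complex, which binds a promoter element called the cell cycle genes homology region (CHR), and in dividing cells they are activated by MYBL2, FOXM1 and NF-Y, of which NF-Y binds CCAAT boxes. In an embryonic DRG the neurons have largely left the cycle, so mitotic RNA comes mainly from dividing progenitors, glia and connective or vascular cells.

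Promoter sequence was set beside the list because these elements are what mitotic genes are known to share, and the list was not chosen by them. RefSeq windows (GRCm38.p6) from 250 bases before to 50 bases after the start were found for 37 of the 43 genes. The letters TTTGAA, read on either strand, were in the windows of 27 of the 37 genes (73.0%), against 20.2% of the 27025 genes with such a window. CCAAT, again on either strand, was in 25 (67.6%) against 41.1%, and both motifs were in 22 (59.5%) against 7.97%. At least 2 CCAAT boxes were in 17 genes (45.9%) against 13.3%. The 2 motifs overlapped in none of the windows of the 37 genes, and 25 genes had a TTTGAA match within 60 bases of the start. TTTGAA was in 22 of the 32 genes with a window that were called higher in Lkb1 KO (68.8%), and in 5 of the 5 not called. This difference was not tested. A match is a run of letters and not a measured binding site. The following stretches run from 170 bases before to 30 bases after the start, with TTTGAA and CCAAT in capitals, or TTCAAA and ATTGG where the match is on the other strand. Ect2 and Kif11 are shown as the genes with the smallest p of all 43 and with the highest fold change, Ccnb2 for its row of CCAAT boxes ahead of TTTGAA, Mad2l1 as a changed gene with neither motif in its window, and Bub3 as the gene with the smallest change, which has both.
Ect2, chr3:27153849-27154048, minus strand: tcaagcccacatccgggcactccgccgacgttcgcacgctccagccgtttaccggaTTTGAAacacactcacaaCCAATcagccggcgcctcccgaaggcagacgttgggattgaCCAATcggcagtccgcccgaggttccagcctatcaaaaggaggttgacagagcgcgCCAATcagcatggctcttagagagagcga
Kif11, chr19:37376212-37376411, plus strand: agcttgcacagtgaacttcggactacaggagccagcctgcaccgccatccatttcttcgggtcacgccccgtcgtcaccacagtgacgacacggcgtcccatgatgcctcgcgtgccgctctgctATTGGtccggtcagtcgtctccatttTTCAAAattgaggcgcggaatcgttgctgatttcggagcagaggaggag
Ccnb2, chr9:70421525-70421724, minus strand: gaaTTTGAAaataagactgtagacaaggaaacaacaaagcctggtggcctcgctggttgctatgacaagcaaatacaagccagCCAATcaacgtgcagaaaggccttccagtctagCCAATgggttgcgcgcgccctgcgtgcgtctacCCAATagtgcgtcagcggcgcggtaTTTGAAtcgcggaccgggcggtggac
Mad2l1, chr6:66535051-66535250, plus strand: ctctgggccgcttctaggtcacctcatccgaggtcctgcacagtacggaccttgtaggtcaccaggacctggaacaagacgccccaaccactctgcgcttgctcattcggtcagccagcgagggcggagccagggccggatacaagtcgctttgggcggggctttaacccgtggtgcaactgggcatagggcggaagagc
Bub3, chr7:131560200-131560399, plus strand: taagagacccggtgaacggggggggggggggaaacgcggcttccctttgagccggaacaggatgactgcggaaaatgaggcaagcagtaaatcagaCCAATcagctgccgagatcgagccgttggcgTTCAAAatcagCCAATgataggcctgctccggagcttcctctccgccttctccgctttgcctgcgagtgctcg

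The values are log2 expression levels that the authors obtained with RMA, which corrects background, makes the arrays' distributions alike and summarizes the probes of a set. The medians of the 10 arrays lay between 6.5 and 6.57. Stk11 was at 7.68 to 7.94 in the Lkb1 KO pools and at 8.51 to 9.08 in the WT pools, and the sources used here do not say whether its probes fall inside the deleted part. The pools differed in embryo sex. The mean of the Y-linked genes Eif2s3y, Kdm5d and Uty was 5.02 and 5.21 in Lkb1 KO replicates 2 and 5 and 8.80 to 9.81 in the other 8 pools. Xist, which is transcribed from the inactive X, was at 4.48 to 5.46 in Lkb1 KO replicate 3 and in WT replicates 1, 3 and 5, and at 11.70 to 12.37 in the other 6. All WT pools therefore carried Y-linked signal, and sex and genotype were not balanced.

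Most of the mitotic genes were higher in Lkb1 KO DRGs, each by a small amount. With limma and a limit of 0.05 on the adjusted p, 37 of the 43 were higher and 0 were lower, against 2.49% of all genes tested called higher and 1.38% called lower. By an ordinary analysis of variance and at an unadjusted p under 0.05 from limma, the count of lower genes was also 0. At that unadjusted limit 42 of the 43 were higher, against 7.51% of all genes higher and 7.77% lower. With the stricter limit of 0.01 on the adjusted p, 21 were higher, against 1.16% of all genes. All 5 Lkb1 KO pools lay above all 5 WT pools for 34 of the 43, against 3.09% of all genes. For these 34 the exact permutation p (two-sided) was 0.00794, the smallest that the possible assignments of 10 samples can give, and for the other 9 it was 0.0159 to 0.905. The median log2 fold change (Lkb1 KO minus WT) was 0.33, which is 1.26-fold, and the highest was 0.47, or 1.38-fold. Over all genes the median was -0.0017, and 1.27% of genes were at or above the median of the mitotic genes. The log2 fold change was above the sum of the SDs of both groups for 40 of the 43, a count that was not taken over all genes. The 6 genes that did not pass were Cdc20, Incenp, Bub3, Kif22, Kif4 and Kif20b. In a bulk sample, more dividing cells and more RNA of these genes per dividing cell cannot be told apart.

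The mean level of the 43 genes was 7.90, 8.05, 7.97, 8.0 and 8.06 in WT replicates 1 to 5. In Lkb1 KO replicates 1 to 5 it was 8.25, 8.42, 8.24, 8.33 and 8.39. The groups were at 8.0 ± 0.07 (SD, n = 5) and 8.33 ± 0.08 (SD, n = 5), and a gap of 0.17 separated the highest WT pool from the lowest Lkb1 KO pool. Among WT pools, 25 of the 43 genes were lowest in replicate 1, against 20.5% of all genes, and among Lkb1 KO pools 25 were lowest in replicate 3, against 15.3%. Lkb1 KO replicates 2 and 5, the pools without Y-linked signal, held the highest Lkb1 KO value for 21 and 14 of the 43, against 16.7% and 22.3% of all genes. WT replicates 2 and 5, which carried Y-linked signal, held the highest WT value for 17 genes each, against 19.3% and 22.9% of all genes. Sex and replicate number were not separated here. The 3 Lkb1 KO pools with Y-linked signal lay above every WT pool for 34 genes. This count could not fall below the 34 found with all 5 Lkb1 KO pools, so it is no check on embryo sex. The map of levels by pool shows this pattern for each gene.

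**Figure D1:**
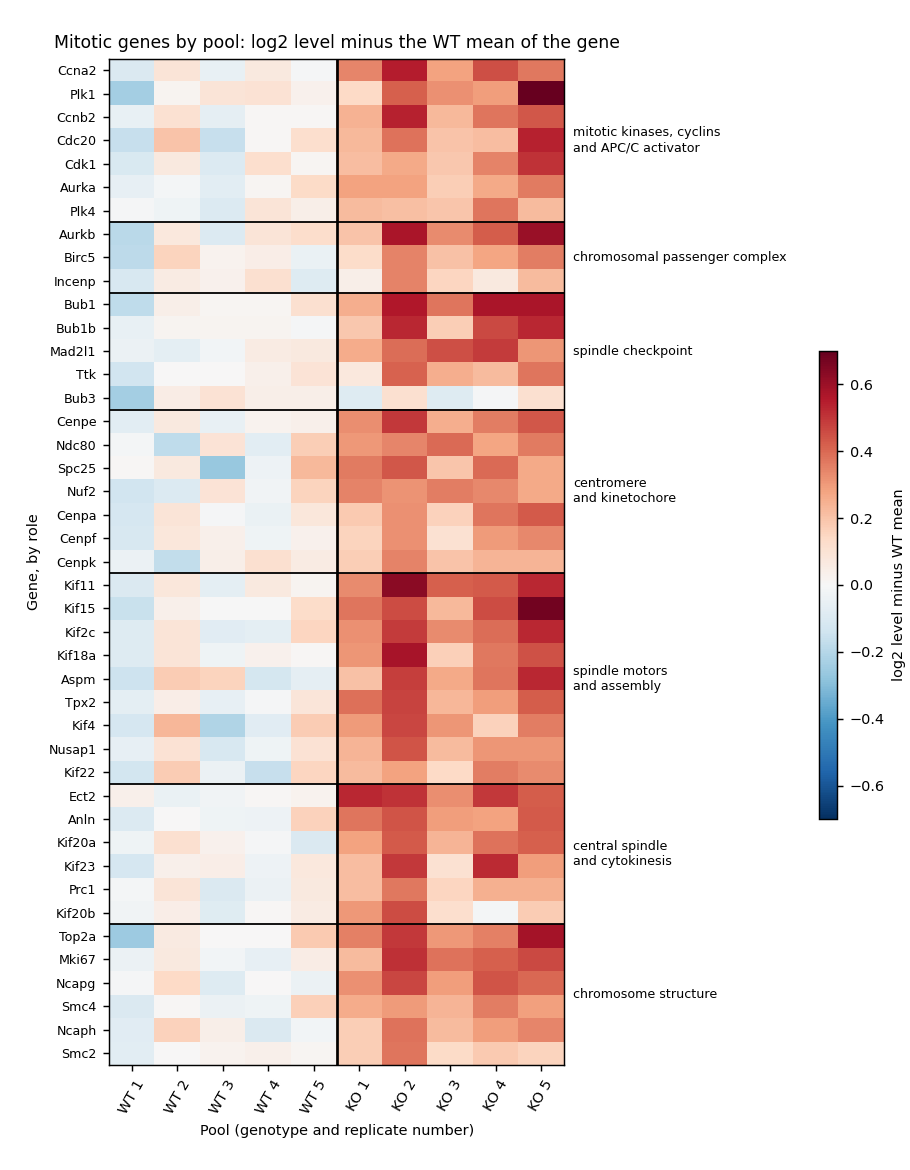
Log2 level of each of the 43 mitotic genes minus the WT mean of that gene, in the 5 WT and 5 Lkb1 KO pools (columns), with the genes ordered by role (rows). The Lkb1 KO columns are red for nearly every gene, deepest in replicates 2 and 5, while Bub3 shows no such difference and WT replicate 1 is the lowest WT pool for 25 genes.

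The calls were fewer when sex-linked signal entered the fit, and the direction was kept for all but 1 gene, Bub3. When the fit held the Y-linked mean as a covariate, 19 of the 37 were still called (1.43% of all genes were then called higher), 42 of the 43 fold changes were above 0, and the median was 0.26. Without Lkb1 KO replicates 2 and 5, which leaves 3 pools against 5, 18 kept their call (1.44% of all genes) and the median was 0.28. When the Xist class of the pools was a block as well, a fit chosen after seeing the data, 15 were called (1.09% of all genes) and 39 were higher at an unadjusted p under 0.05 (5.92% of all genes). Mad2l1, Cenpe, Kif11 and Ect2 had adjusted p-values under 0.01 from limma in both fits, while Cdk1, Plk1 and Top2a did not pass in either. In the fit with a replicate block, 40 of the 43 were called higher (3.59% of all genes, with 2.83% called lower).

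The plot of fold changes orders the genes by role. In no role did a gene pass the test in the downward direction, and the role medians ran from 0.26 to 0.38 on the log2 scale. The role with the highest median and the role with the lowest, the checkpoint and the passenger complex, each have at most 5 genes, and differences between roles were not tested.

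**Figure D2:**
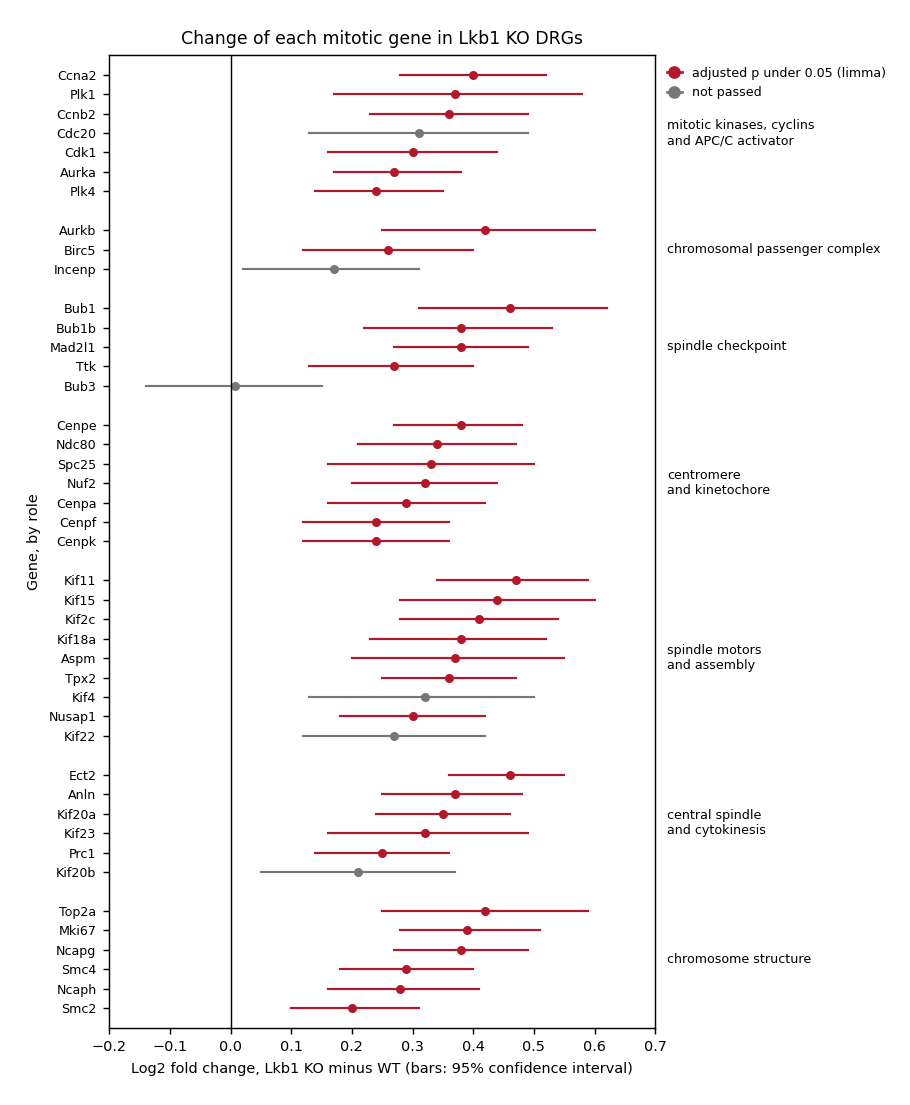
Log2 fold change (Lkb1 KO minus WT, x axis) of each of the 43 mitotic genes by role, with its 95% confidence interval from limma; red genes passed at an adjusted p under 0.05. The points lie between 0.00737 (Bub3) and 0.47 (Kif11), and all but Bub3 have an interval above 0.

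The first role was that of the kinases and cyclins that drive entry into mitosis and the activator of the anaphase-promoting complex (APC/C), the ubiquitin ligase that ends it. Of 7 measured genes, 6 were higher. Ccna2, the cyclin of S phase and early mitosis, stood at 9.59, 9.78, 9.64, 9.76 and 9.68 in WT replicates 1 to 5 and at 10.03, 10.24, 9.97, 10.14 and 10.06 in Lkb1 KO replicates 1 to 5. All its Lkb1 KO values were above the WT values, with a log2 fold change of 0.40 (SE 0.06, adjusted p = 0.00153 from limma). Ccnb2, a B-type cyclin that partners CDK1, stood at 9.73, 9.89, 9.72, 9.79 and 9.79 in WT and at 10.03, 10.32, 10.01, 10.16 and 10.22 in Lkb1 KO, again without overlap, a log2 fold change of 0.36 (SE 0.06, adjusted p = 0.00432 from limma). Cdk1, the catalytic partner, was higher by 0.30 on the log2 scale (adjusted p = 0.0201 from limma), and Aurka, a kinase of the spindle poles, 0.27 (adjusted p = 0.00711). Plk4, which starts centriole duplication, had 0.24 (adjusted p = 0.0120 from limma). Plk1, a kinase that acts from entry to cytokinesis, had 0.37 but an adjusted p of 0.0476 from limma, and it passed only without Lkb1 KO replicate 1 when each of the 10 pools was left out in turn. Cdc20, the APC/C activator that starts anaphase, did not pass. It stood at 7.16, 7.52, 7.16, 7.33 and 7.44 in WT and at 7.55, 7.70, 7.52, 7.54 and 7.86 in Lkb1 KO, so that WT replicate 2 was level with Lkb1 KO replicate 3. Its difference was 0.31 (95% interval 0.13 to 0.49, adjusted p = 0.0618 from limma, and 0.00389 with the replicate block).

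The chromosomal passenger complex, which corrects faulty attachments of chromosomes to the spindle, had 3 measured genes, of which 2 were higher. Its kinase gene Aurkb stood at 8.04, 8.30, 8.13, 8.32 and 8.35 in WT and at 8.43, 8.80, 8.56, 8.65 and 8.83 in Lkb1 KO. The groups did not overlap, Lkb1 KO replicate 1 lying nearest to WT, and the log2 fold change was 0.42 (SE 0.08, adjusted p = 0.0122 from limma). Birc5, which encodes survivin and brings the complex to the centromere, had 0.26 (adjusted p = 0.0383 from limma) and passed in 2 of the 10 fits with 1 pool left out, those without WT replicate 2 or Lkb1 KO replicate 1. The scaffold gene Incenp stood at 7.34, 7.51, 7.48, 7.56 and 7.36 in WT and at 7.49, 7.80, 7.60, 7.52 and 7.67 in Lkb1 KO. Lkb1 KO replicates 1 and 4 lay within the WT range, and the difference of 0.17 did not pass (95% interval 0.02 to 0.31, adjusted p = 0.229 from limma).

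The spindle checkpoint holds back anaphase until every chromosome is attached. Of its 5 genes, 4 were higher. Mad2l1, whose protein MAD2 sequesters CDC20, stood at 9.80, 9.77, 9.82, 9.90 and 9.91 in WT and at 10.10, 10.23, 10.29, 10.33 and 10.15 in Lkb1 KO, with no overlap and a log2 fold change of 0.38 (SE 0.05, adjusted p = 9.22e-04 from limma). Its promoter stretch above held neither motif. The checkpoint kinase gene Bub1 and its relative Bub1b had 0.46 (adjusted p = 0.00266 from limma) and 0.38 (adjusted p = 0.0113). Ttk, the kinase that recruits the others to the kinetochore, had 0.27 (adjusted p = 0.0362 from limma) and passed in 2 of those fits, without WT replicate 5 or Lkb1 KO replicate 1. Bub3, which carries BUB1 and BUBR1 to the kinetochore, was the exception in this role. It stood at 8.94, 9.23, 9.28, 9.22 and 9.22 in WT and at 9.09, 9.29, 9.09, 9.17 and 9.29 in Lkb1 KO, with WT replicate 1 the lowest of all 10 pools and the others intermixed. Its difference was 0.00737 (95% interval -0.14 to 0.15, adjusted p = 0.978 from limma, exact permutation p = 0.905), so the interval held no difference as large as the median of the list.

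**Figure D3:**
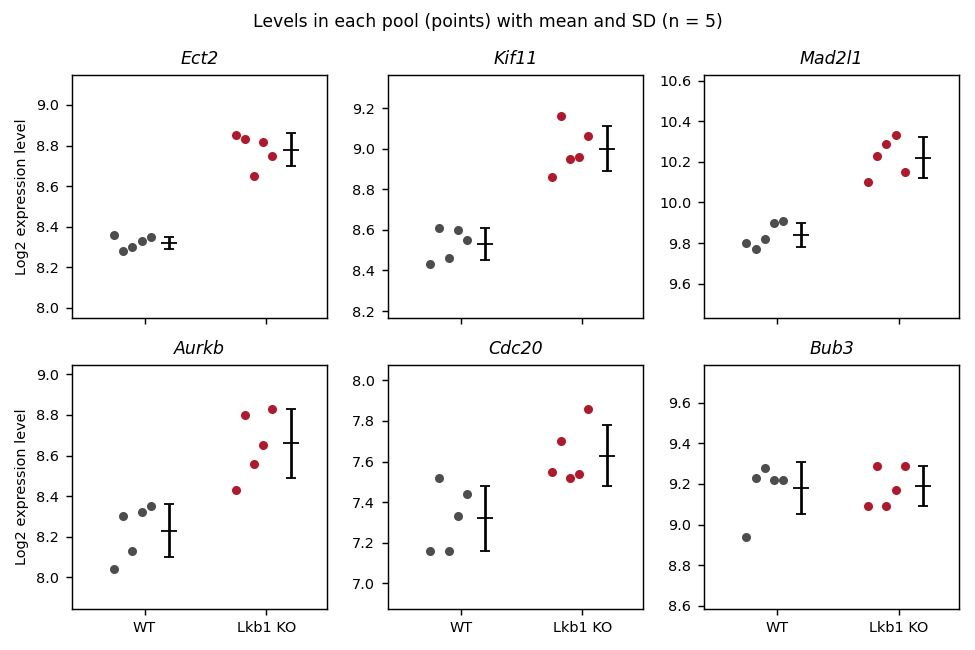
Log2 expression level (y axis) of Ect2, Kif11, Mad2l1, Aurkb, Cdc20 and Bub3 in each of 5 WT (grey) and 5 Lkb1 KO (red) pools, with the mean and SD of the group beside the points. The groups do not overlap for Ect2, Kif11, Mad2l1 and Aurkb, meet at 7.52 for Cdc20 and lie on top of each other for Bub3.

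All 7 measured genes of the centromere and kinetochore, the protein layers through which chromosomes hold microtubules, were higher. Cenpe, a kinesin motor that brings chromosomes to the spindle equator, stood at 7.5, 7.64, 7.52, 7.60 and 7.61 in WT and at 7.90, 8.07, 7.83, 7.93 and 8.01 in Lkb1 KO. These groups lay apart, with a log2 fold change of 0.38 (SE 0.05, adjusted p = 9.18e-04 from limma). Cenpa, the histone variant that marks the centromere, stood at 7.93, 8.14, 8.04, 8.0 and 8.13 in WT and at 8.23, 8.37, 8.21, 8.42 and 8.48 in Lkb1 KO, a log2 fold change of 0.29 (SE 0.06, adjusted p = 0.0178 from limma, and 0.0532 without WT replicate 4). Genes of the NDC80 complex, which binds the microtubule itself, were Ndc80 at 0.34 (adjusted p = 0.00686 from limma), Nuf2 at 0.32 (adjusted p = 0.00524) and Spc25. Spc25 stood at 7.25, 7.31, 6.98, 7.21 and 7.47 in WT and at 7.61, 7.68, 7.44, 7.64 and 7.51 in Lkb1 KO, where replicate 3 was below WT replicate 5. Its log2 fold change was 0.33 (SE 0.08, adjusted p = 0.0324 from limma), and it passed in 3 of the 10 fits with 1 pool left out, without WT replicate 5 or Lkb1 KO replicate 3 or 5. Cenpf and Cenpk, a protein of the outer kinetochore and one of the inner layer, both had 0.24 (adjusted p = 0.0257 and 0.0280 from limma).

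Among 9 genes of spindle motors and spindle assembly, 7 were higher. Kif11, the motor that pushes the spindle poles apart, stood at 8.43, 8.61, 8.46, 8.60 and 8.55 in WT and at 8.86, 9.16, 8.95, 8.96 and 9.06 in Lkb1 KO. The lowest Lkb1 KO pool was above the highest WT pool, and its log2 fold change of 0.47 (SE 0.06, adjusted p = 5.70e-04 from limma) was the highest of the list. Kif15, a motor that can act beside KIF11, had 0.44 (adjusted p = 0.00500 from limma). The microtubule-depolymerizing kinesin gene Kif2c had 0.41 (adjusted p = 0.00176 from limma), and Kif18a, which dampens chromosome movements, had 0.38 (adjusted p = 0.00714). Tpx2, which activates Aurora A and nucleates microtubules, had 0.36 (adjusted p = 0.00139 from limma), and Aspm, a spindle pole protein of dividing progenitors, had 0.37 (adjusted p = 0.0224). Nusap1, a microtubule-bundling protein, stood at 8.63, 8.79, 8.58, 8.66 and 8.79 in WT and at 8.93, 9.13, 8.91, 9.0 and 9.0 in Lkb1 KO, without overlap, a log2 fold change of 0.30 (SE 0.06, adjusted p = 0.00816 from limma). Kif4, an X-linked motor of chromosome arms and the central spindle, stood at 5.93, 6.28, 5.84, 5.97 and 6.23 in WT and at 6.35, 6.52, 6.36, 6.21 and 6.41 in Lkb1 KO, and Lkb1 KO replicate 4 was below WT replicates 2 and 5. With a difference of 0.32 (95% interval 0.13 to 0.50) it did not pass in limma (adjusted p = 0.0608, and 0.00679 with the replicate block). Kif22, another chromosome-arm motor, had 0.27 (adjusted p = 0.0554 from limma, and 0.0278 with the replicate block).

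The central spindle forms between the parting chromosomes and places the furrow that divides the cell. Of 6 such genes, 5 were higher. Ect2, the exchange factor that activates RhoA at the furrow, stood at 8.36, 8.28, 8.30, 8.33 and 8.35 in WT and at 8.85, 8.83, 8.65, 8.82 and 8.75 in Lkb1 KO. It had the smallest p of the list: the WT pools lay between 8.28 and 8.36 and the Lkb1 KO pools all lay above them, with a log2 fold change of 0.46 (SE 0.04, adjusted p = 8.12e-05 from limma). Anln, the furrow scaffold anillin, had 0.37 (adjusted p = 0.00169 from limma) and Kif20a, a motor of the central spindle, had 0.35 (adjusted p = 0.00175). Kif23, the motor subunit of centralspindlin, had 0.32 (adjusted p = 0.0336 from limma), and Prc1, which bundles the overlapping microtubules, had 0.25 (adjusted p = 0.0153). Kif20b, a motor of late cytokinesis, stood at 6.78, 6.85, 6.72, 6.81 and 6.86 in WT and at 7.11, 7.26, 6.92, 6.79 and 6.98 in Lkb1 KO. Its Lkb1 KO replicate 4 lay within the WT range, and the difference of 0.21 did not pass (95% interval 0.05 to 0.37, adjusted p = 0.172 from limma).

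The 6 genes of mitotic chromosome structure were all higher, with no overlap between the groups for any of them. Ncapg, a condensin subunit, stood at 7.64, 7.79, 7.56, 7.65 and 7.61 in WT and at 7.97, 8.12, 7.94, 8.09 and 8.05 in Lkb1 KO, a log2 fold change of 0.38 (SE 0.05, adjusted p = 0.00104 from limma). The core condensin ATPase gene Smc4 stood at 9.92, 10.03, 9.98, 9.99 and 10.19 in WT and at 10.28, 10.32, 10.26, 10.38 and 10.31 in Lkb1 KO, a log2 fold change of 0.29 (SE 0.05, adjusted p = 0.00578 from limma). Its partner Smc2 had the lowest log2 fold change of this role. It stood at 8.92, 9.0, 9.02, 9.03 and 9.01 in WT and at 9.17, 9.37, 9.13, 9.18 and 9.15 in Lkb1 KO, where replicate 2 was the highest, a log2 fold change of 0.20 (SE 0.05, adjusted p = 0.0337 from limma), and it passed in 4 of the 10 fits with 1 pool left out, without Lkb1 KO replicate 1, 2, 3 or 5. Ncaph, the subunit that closes the condensin ring, had 0.28 (adjusted p = 0.0147 from limma). The marker of dividing cells Mki67, whose protein coats mitotic chromosomes, had 0.39 (adjusted p = 0.00116 from limma). Top2a, the topoisomerase that untangles sister chromatids, had 0.42 (adjusted p = 0.00903 from limma) on the brighter of its probe sets, with a mean level of 9.07, and 0.08 on the dimmer one, with a mean of 6.67. With the mean of both it had 0.25 and did not pass (adjusted p = 0.0789 from limma).

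**Figure D4:**
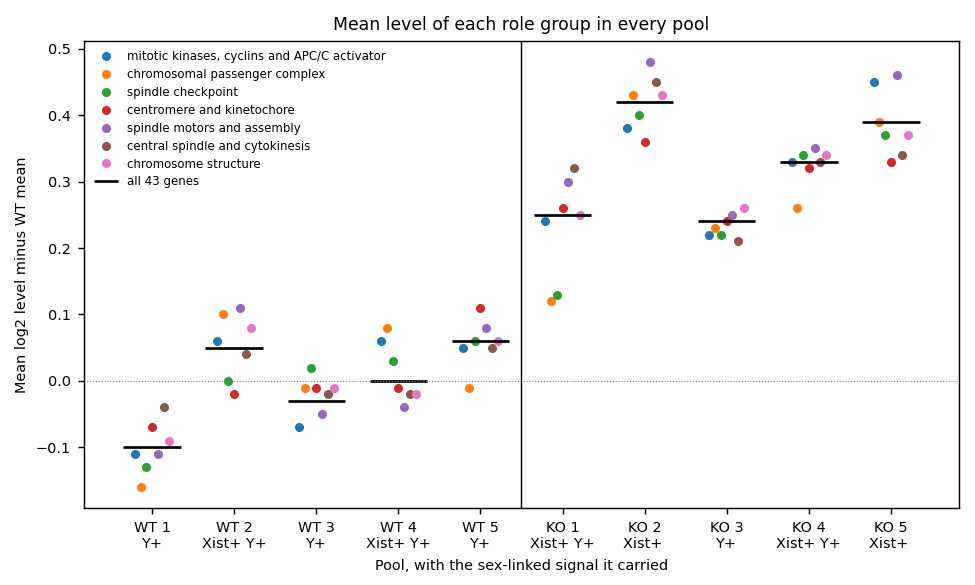
Mean log2 level of the genes of each role, minus its WT mean (y axis), in each WT and Lkb1 KO pool (x axis, with the sex-linked signal of the pool beneath), and the mean over all 43 genes as a bar. The bars of all Lkb1 KO pools stand above those of all WT pools. This holds for any choice of Lkb1 KO pools, such as those with Y-linked signal, and so is no check on embryo sex.

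The role means differed between the groups by 0.28 to 0.37 on the log2 scale. The difference was 0.28 for the passenger complex, 0.30 for the checkpoint, 0.31 for the kinetochore, 0.32 for the kinases and cyclins, 0.33 for both cytokinesis and chromosome structure and 0.37 for the spindle motors. The gap between the groups was narrowest for the passenger complex, at 0.02, and widest for chromosome structure, at 0.17.

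Other genes of mitosis, a list that does not hold the 43, were partly higher. Of 125 measured, limma called 37 higher and 0 lower, with a median log2 fold change of 0.09. At an unadjusted p under 0.05 it was 58 higher and 3 lower, the analysis of variance called 16 higher and 0 lower, and the fit with the replicate block 47 higher and 2 lower. The 8 with the smallest p were Mastl, the kinase that restrains a phosphatase opposing CDK1, at 0.43 (adjusted p = 4.93e-04 from limma), the spindle proteins Hmmr at 0.42, Spag5 at 0.34 and Ckap2l at 0.39, the cohesin protector Sgo2a at 0.33, the CDK1-inhibiting kinase Wee1 at 0.32, the CDK-binding protein Cks2 at 0.31 and the kinetochore scaffold Knl1 at 0.37.

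Over all genes tested, limma called 2.49% higher and 1.38% lower, and 7.51% and 7.77% at an unadjusted p under 0.05. The analysis of variance called 1.30% higher, and the fit with the replicate block 3.59% higher and 2.83% lower. These shares are the background for the counts of the lists, above and below. The share called lower by the analysis of variance was not taken. By function, the counts of the other mitotic genes were as follows. Of 28 kinetochore and centromere genes, 9 were higher (median 0.15), of 29 spindle and centrosome genes 12 (median 0.16), and of 10 kinases and phosphatases of mitotic entry 5 (median 0.26). Of 18 checkpoint and APC/C genes 2 were higher, with a median of -0.01, and these were the APC/C inhibitor Fbxo5 and the ubiquitin-conjugating enzyme Ube2c. Of 13 genes of cohesin and sister separation 3 were higher (median 0.07), namely Sgo2a, Sgo1 and Cdca5. Of 4 condensin genes 1 was higher, and of 8 cytokinesis genes 1 (2 in each with the replicate block). Of 15 regulators of mitotic transcription, 4 were higher. Foxm1, chosen after its value was seen, was higher by 0.39 on the log2 scale (adjusted p = 0.0232 from limma), while Mybl2 and Lin54 had 0.07 and 0.08 and did not pass. With the Y-linked covariate, without Lkb1 KO replicates 2 and 5, and by the analysis of variance, 0 of the 15 regulators were called higher. Rb1 had a log2 fold change of -0.20, with all Lkb1 KO values below the WT values. It did not pass (adjusted p = 0.0621 from limma, and 0.0155 with the replicate block). The differences between these groups of genes were not tested.

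S phase genes act in replicating the DNA before mitosis, and most did not pass. Of 30 measured, 11 were higher and 0 were lower (median 0.19) by limma, with 23 higher and 0 lower at an unadjusted p under 0.05, and 18 higher with the replicate block. They included Cdc45, Mcm3, Mcm4 and Mcm6, parts of the replicative helicase, and Rrm2, a subunit of ribonucleotide reductase. With the Y-linked covariate, without Lkb1 KO replicates 2 and 5, and by the analysis of variance, 1 of the 30 was called. Of 13 genes of G1 and cell cycle exit, 3 were higher, namely Cdk6 at 0.49, Ccnd2 at 0.38 and the CDK inhibitor Cdkn2c at 0.28. Ccnd1 had the largest log2 fold change of this list, 0.62, and did not pass in the main fit. Its adjusted p was 0.0599 from limma, and 0.0101 with the replicate block. It stood at 9.16, 9.36, 9.29, 9.20 and 9.06 in WT and at 9.49, 10.61, 9.69, 9.74 and 9.65 in Lkb1 KO, where replicate 2 was far above the others. Without Lkb1 KO replicates 2 and 5 its log2 fold change was 0.43 (adjusted p = 0.0195 from limma), and with the Y-linked covariate 0.39 (adjusted p = 0.305).

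Of the marker lists of cell types in the pools, those of fibroblasts and of sensory neurons held the most calls. The list of fibroblasts and mesenchyme had 18 genes, of which limma called 10 higher and 0 lower (12 and 0 at an unadjusted p under 0.05, 7 and 0 by the analysis of variance), and the mean of the list was 8.12 to 8.23 in WT pools and 8.33 to 8.41 in Lkb1 KO pools, so these groups did not overlap either. Of 17 sensory neuron genes, 4 were lower and 0 were higher by limma (13 and 0 at an unadjusted p under 0.05, 3 and 0 by the analysis of variance, 8 and 0 with the replicate block), and the mean was 10.32 to 10.46 in WT and 10.17 to 10.27 in Lkb1 KO. The 4 were Isl1, Isl2, Elavl4 and Prrxl1. Of 12 glia and crest genes 1, the cadherin gene Cdh19, was lower, and the mean was 9.03 to 9.04 in WT and 8.93 to 9.12 in Lkb1 KO. Endothelial genes had 1 call of 10, Cldn5, which was higher, with means of 8.39 to 8.49 and 8.42 to 8.69. Of 8 pericyte and smooth muscle genes 0 passed in limma and 0 in the analysis of variance, with 2 higher at an unadjusted p under 0.05, and their mean was 6.80 to 6.92 in WT and 6.89 to 7.13 in Lkb1 KO. Of 10 macrophage genes 0 passed in limma, in the analysis of variance or at an unadjusted p under 0.05, with means of 6.22 to 6.38 and 6.30 to 6.36. Spinal cord progenitor genes, 10 in all, were dim, with means of 5.11 to 5.20 and 5.14 to 5.28, and 1, Pax6, was higher. The erythroid list had 5 genes, 0 of which passed in limma, in the analysis of variance or at an unadjusted p under 0.05, and its mean was 6.82 to 7.33 in WT and 6.81 to 7.36 in Lkb1 KO. With the replicate block, 2 glia and crest genes were lower and 2 endothelial and 2 pericyte genes were higher. The part of cell composition in the difference of the mitotic genes was not tested.

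**Figure D5:**
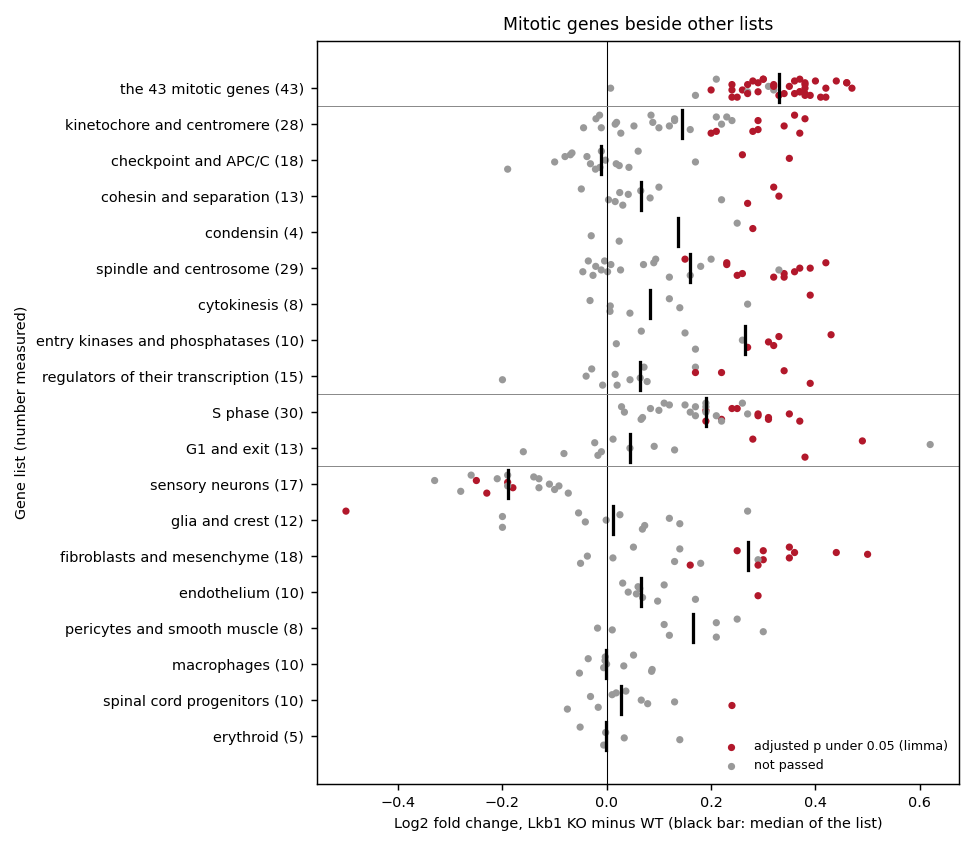
Log2 fold change (Lkb1 KO minus WT, x axis) of each gene of the mitotic list, of other mitotic lists, of S phase and G1 lists and of cell type markers (rows, with the number measured); red points passed at an adjusted p under 0.05 from limma and the black bar is the median. The mitotic list has a median of 0.33. The 125 other mitotic genes have a median of 0.09, with list medians from -0.01 (checkpoint and APC/C) to 0.26 (entry kinases and phosphatases). The fibroblast list, at 0.27, is also shifted to the right while the sensory neuron list, at -0.19, is shifted to the left. The lists were chosen with earlier results of these data known, and differences between them were not tested.

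A per-gene analysis of variance without moderation, the kind of test named with the study's own gene table, called 20 of the 43 mitotic genes at an adjusted p under 0.05 (1.30% of all genes tested were called higher), all of them among the 37. At an adjusted p under 0.01, the false discovery rate named in the methods, it called 1 of the 43 (0.401% of all genes).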

How the data were processed

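RNA from DRGs of 5 Lkb1 KO and 5 WT pools (250 ng of total RNA each) was labelled with biotin and hybridised to 1 array per pool. The authors deposited log2 expression levels of 35556 probe sets. RMA and Partek 6.6 are listed in the submitters' processing notes, and MATLAB with a false discovery rate of 0.01 in the methods. The sources used here name no genome build for the values. In the platform's annotation 21789 probe sets had 1 gene, 1621 had several, and 12146 had none listed. Of the first, 21698 matched RefSeq (GRCm38.p6). The brightest probe set was kept for the 999 genes with several, which left 19938 genes.

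The test was limma's moderated one (version 3.58.1, R 4.3.3), two-sided, from lmFit and eBayes. P-values were adjusted over all 19938 genes after Benjamini and Hochberg, and genes with an adjusted p under 0.05 were called. Python 3.11.15 and pandas 2.3.3 were used elsewhere. The number of arrays limits the precision.

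The 44 genes and the other lists were chosen with earlier results of these data known, so no p is given for a list. Values in every pool are given for the genes with the smallest p, the largest p and the highest level in each role. Of the other mitotic genes the 8 with the smallest p are named, with some called genes and regulators. Of the marker lists, some genes called in the main fit or an alternative are named, and the called fibroblast genes are not. Levels were not compared between genes. Some genes of these lists are not reported here.

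The labels use the same replicate numbers in both groups. After the group means were subtracted, WT and Lkb1 KO samples of 1 number correlated across genes at 0.21 to 0.48, and those of different numbers at -0.48 to 0.31, so that a paired fit, with the number as a block, was run beside the main fit, which has no block. Blocked values are given where they change a call or a count by over 1.5 times. The labels do not say what a number marks. The methods name littermate controls but do not tie a number to a litter, so the pairing by number rests on the values alone. No array repeated another: within a group, the log2 differences between 2 arrays had an SD of 0.177 to 0.276 over the probe sets.

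Alternatives were aligned array medians, cyclic loess, analysis of variance per gene, an intensity trend with a robust prior, a fit without the dimmest 30% of genes, probe sets averaged within a gene, the mean of 3 Y-linked genes as a covariate (Ddx3y was planned as well and was not analysed here), Lkb1 KO replicates 2 and 5 left out, the replicate number as a block (replicate block), and each sample left out in turn. The Xist class of the pools (Xist signal or none) as a block without those 2 replicates, and the analysis of variance at 0.01, were added after seeing the data.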

Additional observations from a re-analysis of the deposited data

Results flagged for a closer look

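In 88 groups of 5 pools, 43 genes and the mean of all genes in each genotype, 5 values stood apart from the other 4 by Dixon's criterion at the 95% level, which chance alone gives in about 1 group of 20. Plk1 was lowest in WT replicate 1, at 8.06, with the other 4 WT pools at 8.32 to 8.40. Bub3 was also lowest in WT replicate 1, at 8.94, against 9.22 to 9.28, and so was Smc2, at 8.92 against 9.0 to 9.03. Smc2 was highest among Lkb1 KO pools in replicate 2, at 9.37 against 9.13 to 9.18. Plk4 was highest in Lkb1 KO replicate 4, at 8.72 against 8.54 to 8.57. Without WT replicate 1 the log2 fold change of Plk1 was 0.31 (adjusted p = 0.102 from limma), that of Smc2 was 0.19 (adjusted p = 0.0874) and that of Bub3 was -0.0513 (adjusted p = 0.749). Without Lkb1 KO replicate 2 that of Smc2 was 0.16 (adjusted p = 0.0480 from limma).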

How the results depend on the processing

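The count of 37 mitotic genes called higher was 36 to 38 with aligned medians, cyclic loess, the intensity trend, the dimmest 30% left out or the mean of probe sets, and 40 in the paired fit with the replicate block, which added Cdc20, Kif22 and Kif4 and lost none. It was 20 by the analysis of variance, 19 with the Y-linked covariate, 18 without Lkb1 KO replicates 2 and 5 and 15 when the Xist class was a block as well, where the median log2 fold change was 0.26 against 0.33. At an adjusted p under 0.01 it was 21 by limma and 1 by the analysis of variance. The share of all genes was not taken for the counts of 36 to 38 or for the fits with 1 pool left out. With 1 pool left out the count was 27 (without WT replicate 1) to 36, and 26 genes were called in all 10 of these fits. The other 11, Cdk1, Plk1, Birc5, Ttk, Cenpa, Cenpf, Cenpk, Spc25, Aspm, Kif23 and Smc2, were called in 1 to 9 of them. For the 125 other mitotic genes the count of 37 became 16, 11, 13 and 6 under the analysis of variance, the covariate, the loss of both replicates and the Xist class block, 47 with the replicate block, and 24 to 37 with 1 pool left out, with 24 without WT replicate 3, WT replicate 4 or Lkb1 KO replicate 2. The difference of Bub3, 0.00737, changed sign to -0.0785 with the covariate, -0.0618 without both replicates and -0.0786 with the Xist class block, and ran from -0.0513 to 0.0326 with 1 pool left out. No other gene of the 43 changed sign. The mean difference of the 43 genes ran from 0.26 to 0.35 over all alternatives. Leaving out pools also lowers the number of samples; other causes were not tested. Small differences, such as that of Incenp, are within what 5 pools a group can leave unresolved.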
